A study of Mus musculus with 3 samples.

Results

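The genes described here are 36 genes of protein folding in the endoplasmic reticulum (ER) and of the stress response that watches over it. They were chosen by symbol, not by measured values, out of 32594 gene rows of the deposited tables. All 36 symbols were found. Ddit3 stood on a second row as well, which held no UMIs and was left out. The genes were grouped by role into 11 chaperones and their helpers, 6 enzymes of disulfide bonds, 4 stress sensors, 8 transcription factors and regulators, 5 genes of ER-associated degradation and 2 genes of protein entry into the ER.

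Droplet single-cell RNA sequencing (10x Genomics) had been done on whole prostates of C57BL6 mice, labelled 12 to 15 weeks old. The study compared 1 library from Srd5a2 knockout tissue (Srd5a2-/-) with 2 libraries from Srd5a2 heterozygous tissue (Srd5a2+/-). Srd5a2 encodes a steroid reductase that turns testosterone into the more potent androgen dihydrotestosterone. There was no wild-type group, and dihydrotestosterone was present while each of the 3 tissues was dissociated (2 h, 37 °C). The labels do not give the number of animals behind each library, so the spread between the 2 heterozygote libraries may be technical or biological.

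Secretory cells fold and oxidize most of their export proteins inside the ER. When unfolded proteins build up, the sensors Ern1 (IRE1), Eif2ak3 (PERK) and Atf6 signal to the nucleus: Ern1 splices the messenger RNA of Xbp1, Eif2ak3 slows translation and favours Atf4, and Atf6 is itself cut into a transcription factor. Their targets include chaperones, disulfide isomerases and the machinery that pulls misfolded proteins back out for degradation, and, under lasting stress, Ddit3 (CHOP) and Trib3. The luminal cells of the prostate export large amounts of protein into seminal fluid, as do those of the seminal vesicle.

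The ER stress element is the DNA motif through which Atf6 acts together with the CCAAT-binding factor NF-Y. Promoters of RefSeq (build GRCm38.p6, 250 bases before to 50 after the start) were at hand for 30 of the 36 genes; Atf6, Ern2, Creb3l1, Manf, Hyou1 and Ero1lb had none. The element was searched as CCAAT, 9 bases of any kind and CCACG, on both strands. It was found in 9 of the 30 promoters (Hspa5, Hsp90b1, Calr, Canx, Pdia6, Dnajc3, Creld2, Syvn1 and Derl3) and in 37 of all 27025 promoters (0.137%). With 1 mismatch allowed it was in 14 of the 30 and in 466 of all (1.72%). The 250 bases before the start of Hspa5, the main ER chaperone, are shown first, with the matching ends of the element in capitals. The start is that of RefSeq; GENCODE vM21 starts the gene at base 34771970, so the element and the later bases of the window lie inside that gene model.
Hspa5, chr2:34771840-34772089, gene on the plus strand: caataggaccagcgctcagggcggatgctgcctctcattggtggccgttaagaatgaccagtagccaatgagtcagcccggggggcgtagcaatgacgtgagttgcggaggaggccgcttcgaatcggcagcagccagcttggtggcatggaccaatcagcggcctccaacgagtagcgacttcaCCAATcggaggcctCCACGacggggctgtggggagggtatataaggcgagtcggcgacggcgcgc
The other 8 promoters are shown as the element with 8 bases on each side, since their genes take part in the pattern of levels described further on. Each is written 5′ to 3′ along its gene, with the ends of the element in capitals. CGTGG before ATTGG is the element on the opposite strand, and Hsp90b1 held it once in each direction.
Hsp90b1, chr10:86705630-86705664, gene on the minus strand: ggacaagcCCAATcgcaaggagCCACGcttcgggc
Hsp90b1, chr10:86705525-86705559, gene on the minus strand: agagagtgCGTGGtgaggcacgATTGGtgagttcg
Calr, chr8:84847067-84847101, gene on the minus strand: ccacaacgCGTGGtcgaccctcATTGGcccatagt
Canx, chr11:50325792-50325826, gene on the minus strand: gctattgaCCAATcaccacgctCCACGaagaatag
Pdia6, chr12:17266483-17266517, gene on the plus strand: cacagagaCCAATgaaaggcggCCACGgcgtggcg
Dnajc3, chr14:118937819-118937853, gene on the plus strand: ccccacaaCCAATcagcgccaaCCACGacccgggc
Creld2, chr15:88819512-88819546, gene on the plus strand: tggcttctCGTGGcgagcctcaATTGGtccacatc
Syvn1, chr19:6046524-6046558, gene on the plus strand: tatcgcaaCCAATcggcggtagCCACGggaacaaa
Derl3, chr10:75893234-75893268, gene on the plus strand: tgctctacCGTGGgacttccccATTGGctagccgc
A second form of the element, ATTGG, 1 base and CCACG, was in Herpud1 and Dnajb11 and in 12 of all promoters (0.0444%). Both are shown with the same flanks.
Herpud1, chr8:94386369-94386395, gene on the plus strand: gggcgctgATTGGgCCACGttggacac
Dnajb11, chr16:22857844-22857870, gene on the plus strand: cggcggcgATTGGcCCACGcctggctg
The amino acid response motif, through which Atf4 acts, was searched as TGATG, 1 base of any kind and AA. It was in Herpud1, Trib3 and Nupr1 and in 1219 of all promoters (4.51%). These 3 windows are shown because Trib3 and Nupr1 differed by genotype in some classes. In all 3 the motif lay on the strand opposite to the gene.
Herpud1, chr8:94386309-94386332, gene on the plus strand: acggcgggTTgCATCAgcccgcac
Trib3, chr2:152344031-152344054, gene on the minus strand: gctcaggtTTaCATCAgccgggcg
Nupr1, chr7:126625565-126625588, gene on the minus strand: gggccagaTTgCATCAgacagggc
No printed match overlapped another. A match is a string of letters in these windows, and binding was not measured.

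The deposited matrices held 13273, 5000 and 13866 barcodes in the knockout, heterozygote 1 and heterozygote 2, an order kept for all triples of values that follow. After filters on genes and mitochondrial UMIs and the removal of 1076, 206 and 1112 barcodes scored as doublets, 8907, 4512 and 9475 cells remained, with median totals of 4340.0, 6990.0 and 4867.0 UMIs. The libraries shared 15 to 57 cell barcodes in pairs. The cells fell into 39 clusters, named from marker genes; each name therefore stands for cells like that type. 9 clusters were secretory luminal (1478, 2144 and 4338 cells), and 12 clusters with 4879 cells stayed unnamed. The clusters named seminal vesicle-like held 1538, 326 and 568 cells together. Of these only cluster 4 (492, 315 and 491 cells) had at least 50 cells in each library. Seminal vesicle-like cells stand for cluster 4 below, except where all clusters of that name are given. The ionocyte class drew 36.0% to 42.5% of its UMIs from seminal vesicle secretory genes, against 0.339% to 2.90% in secretory luminal cells. Srd5a2, the targeted gene, had 12, 136 and 152 UMIs over all cells, mostly in fibroblasts and smooth muscle; the labels do not say which exons are deleted. Free RNA was measured in barcodes with fewer than 500 genes, which held 1359 and 13484 CPM of Sbp, a secretory protein gene, in the knockout and heterozygote 2; heterozygote 1 had 2 such barcodes.

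Most of the 36 genes had their highest level in secretory luminal cells. A level is given as CPM, the UMIs of the gene scaled to the total UMIs of the class in that library. The mean over the 3 libraries was highest in secretory luminal cells for 29 of the 36 among the 8 classes with at least 50 cells per library, and for 20.2% of all genes. For 22 of the 36 every secretory luminal library lay above every library of the 7 other classes, against 5.34% of 21190 genes. With the seminal vesicle secretory genes left out of the totals this count was 17 (2.99% of all genes), and with TMM-scaled totals it was 23 (5.97%). Summed over the 36 genes, the level was 26296, 27000 and 19309 CPM in secretory luminal cells, 6184, 5757 and 5441 in seminal vesicle-like cells, and 6921, 7597 and 7182 in basal cells. The 3 secretory luminal values lay above all the others, with heterozygote 2 lowest among them.

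**Figure D1:**
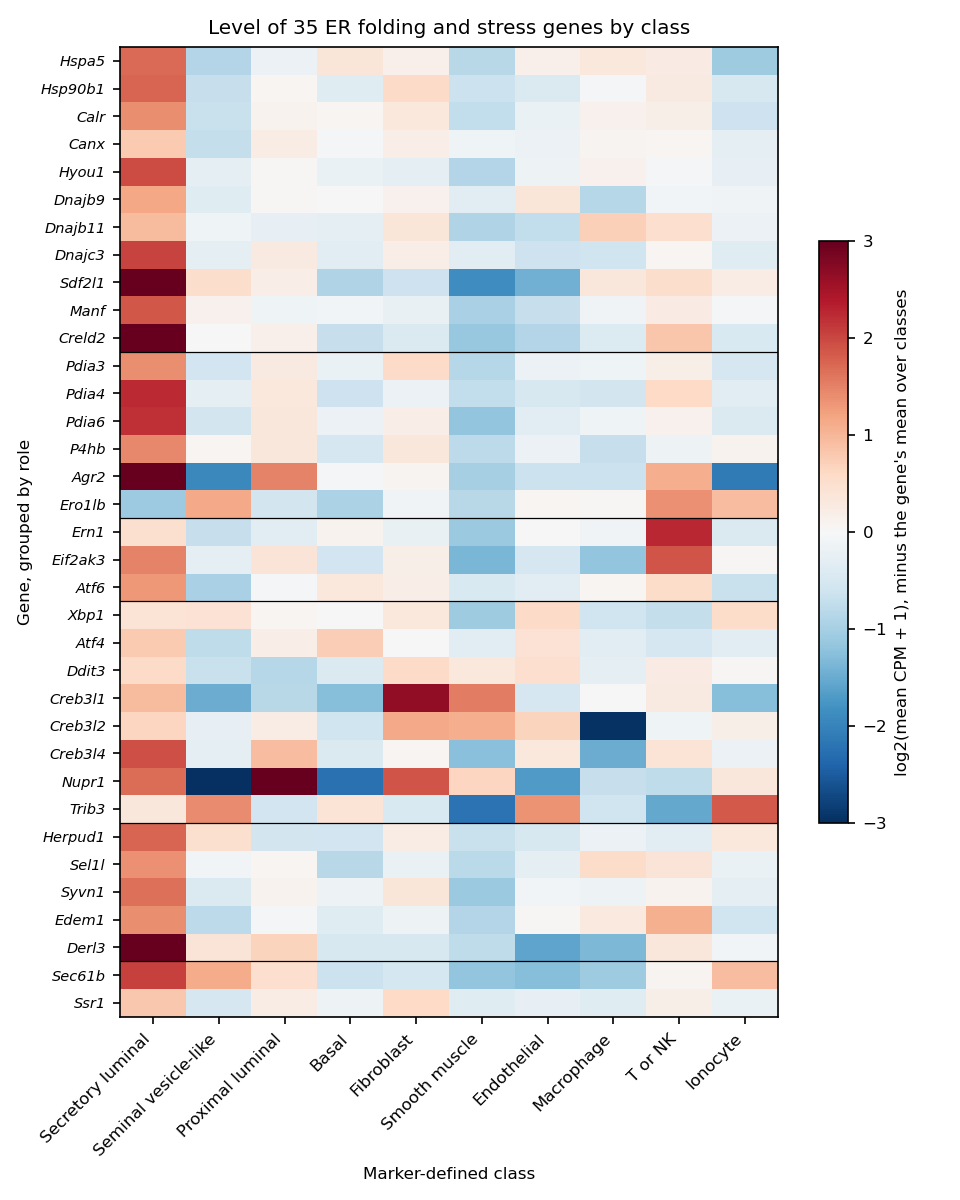
Heat map of 35 of the 36 genes (y axis, grouped by role) over 10 marker-defined classes (x axis); colour is log2(mean CPM of the 3 libraries + 1) minus the gene's mean over the classes, clipped at both ends of the scale. The secretory luminal column is the deepest red for most chaperones, disulfide enzymes and degradation genes. Other genes peak elsewhere, among them Trib3, Ero1lb, Creb3l1, Nupr1, Xbp1, Ern1 and Eif2ak3.

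Against basal cells, 30 of 35 genes with at least 10 UMIs had all 3 secretory luminal libraries higher (background 31.1% of 19957 genes) and none had all lower (25.6%). The median log2 difference was 1.91 over the 35 genes and 0.07 over all genes. Creb3l1, Ern1, Atf4, Trib3 and Ero1lb overlapped between the classes. Against seminal vesicle-like cells, 32 of 35 were higher in all libraries (64.6% of 19896 genes) and 2, Trib3 and Ero1lb, were lower (6.64%), with median differences of 1.95 and 0.52. The seminal vesicle secretory genes took 55.6%, 58.3% and 59.2% of the UMIs of the seminal vesicle-like cells. Without them in the totals 21 of 35 were higher and 3, Trib3, Xbp1 and Ero1lb, lower, with medians of 0.73 and -0.02. The shares of all genes were not counted over these totals. The comparison of seminal vesicle-like with basal cells depended on the choice of totals. Over plain totals 11 of 35 genes were higher (12.5% of 15428 genes) in seminal vesicle-like cells, 10 lower (57.2%) and 14 overlapped. Without the secretory genes 28 were higher and 1, Atf4, lower, again with no share of all genes counted. The median difference was -0.06 for the 35 genes and -0.69 for all genes over plain totals, and 1.06 and 0.10 without the secretory genes.

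Among the chaperones, Hspa5 (BiP), the main Hsp70 of the ER, stood at 6521, 5389.8 and 3215 CPM in secretory luminal cells. In basal cells it was 2018, 2200.0 and 1711 CPM, and in seminal vesicle-like cells 961, 821 and 761 CPM. The secretory luminal libraries lay above the basal ones, and these above the seminal vesicle-like ones of cluster 4, with no overlap. In other seminal vesicle-like clusters the knockout had 588 CPM (cluster 12, 736 knockout cells) and 2231 CPM (cluster 21, 310 knockout cells). Hsp90b1 (GRP94), the Hsp90 of the ER, had 2541, 2762 and 1448 CPM in secretory luminal cells against 480.4, 633 and 462 in basal cells. The lectin chaperones of new glycoproteins were also higher in secretory luminal than in basal cells. Soluble Calr stood at 1407, 1677 and 1271 CPM against 520.2, 647 and 548 in basal cells. Membrane-bound Canx differed less, at 450.5, 419 and 484 CPM against 232, 295 and 222.

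The helpers of Hspa5 varied, with log2 differences from basal cells of 1.16 for Dnajb9 to 3.95 for Sdf2l1, beside 1.30 for Hspa5 itself. Sdf2l1, a partner of ER DnaJ proteins, had 504, 656 and 316 CPM in secretory luminal cells and 22.4, 24.5 and 47.2 in basal cells. Creld2, an ER protein induced by unfolded proteins, had 653, 668 and 207 CPM against 38.3, 35.5 and 37.9 in basal cells. Manf, a secreted ER stress factor, had 1565, 1608 and 877 CPM against 299, 393 and 353. In each of these genes the lowest secretory luminal library was heterozygote 2, still above every basal library. The nucleotide exchange factor Hyou1 ranged from 123 to 228 CPM in secretory luminal cells, the DnaJ co-chaperone Dnajc3 from 889 to 1366, Dnajb9 from 363 to 401 and Dnajb11 from 94.2 to 165. All 4 were above every basal library, where they spanned 35.9 to 43.8, 197 to 256, 156 to 204 and 51.5 to 68.6 CPM.

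Of the disulfide enzymes, Agr2 was the most uneven over classes. This isomerase-like protein helps fold mucins and stood at 1813, 2073 and 1648 CPM in secretory luminal cells. Elsewhere it was 69.9, 71.8 and 263 CPM in basal and 8.95, 42.4 and 54.8 in seminal vesicle-like cells. The log2 difference from basal cells was 4.05, and in both other classes the knockout was lowest. Pdia6, a protein disulfide isomerase, had 1378, 1683 and 1340.2 CPM in secretory luminal cells against 229, 279.999 and 350.5 in basal cells. Pdia3, which works with Calr and Canx, ranged from 742 to 1162 CPM, Pdia4 from 276 to 459.7 and P4hb, the classical isomerase, from 623 to 835. Ero1lb, the oxidase known from pancreatic islets, went the other way, with 8.95, 9.63 and 10.5 CPM in secretory luminal cells and 47.8, 43.3 and 55.2 in seminal vesicle-like cells, which do not overlap.

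The sensors were present in secretory luminal cells, apart from one. Atf6 had 303, 272 and 349 CPM, all above the basal values of 156, 142 and 167. Ern1 had 192, 181 and 132 CPM, which overlapped the basal values of 136, 134 and 118. T or NK-like cells, too few in heterozygote 1 for a fit (13 cells), had the highest Ern1 level of all 10 classes at 666, 474 and 587 CPM. Eif2ak3 stood at 81.3, 86.6 and 124 CPM in secretory luminal cells, above the 16.6 to 30.4 CPM of basal cells. Its mean over the libraries was highest in T or NK-like cells, at 127 CPM against 97.2 in secretory luminal cells. Ern2, the form of Ern1 known from mucus-making epithelia, had 0, 1 and 6 UMIs in secretory luminal cells, too few for a fold.

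The transcription factors and regulators were the least alike. Atf4, the factor favoured by Eif2ak3, had 745, 708 and 799 CPM in secretory luminal cells and 746, 706 and 726 in basal cells, which overlap. Xbp1, spliced by Ern1, had 306, 301 and 288 CPM in secretory luminal cells, 231, 235 and 206 in basal cells, and 359, 277 and 269 in seminal vesicle-like cells; these gene counts do not separate its spliced form. Ddit3, a factor of lasting stress, stood at 91.9, 110.4 and 74.9 CPM. The secretory luminal values of Xbp1 and Ddit3 lay above the basal ones, and those of Xbp1 overlapped the seminal vesicle-like ones. The mean of Xbp1 was highest in endothelial cells, at 333 CPM, with ionocyte-like cells next at 327. Trib3, a pseudokinase induced by Atf4 and Ddit3, was higher in seminal vesicle-like cells (51.5, 39.6 and 38.2 CPM) and ionocyte-like cells (67.1, 62.4 and 44.4) than in secretory luminal cells (21.4, 17.1 and 21.1).

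The 3 membrane-bound factors of the Creb3 family were at low to middling levels. Creb3l1, which is cleaved like Atf6 and drives genes of collagen secretion, was highest in fibroblasts at 45.3, 69.0 and 30.3 CPM, against 4.18, 18.4 and 19.3 in secretory luminal cells. Creb3l2 was also highest in fibroblasts among the fitted classes, at 120.1, 149.6 and 98.6 CPM, overlapping smooth muscle (111, 119.5 and 127) and secretory luminal cells (84.4, 71.6 and 107). Creb3l4 had 6.80, 9.67 and 12.6 CPM in secretory luminal cells, with values of 0.342 to 2.49 CPM in basal cells. Nupr1, a small stress-induced nuclear protein, peaked in proximal luminal cells at 3283, 3014 and 1606 CPM. Its secretory luminal values were 75.6, 865 and 749.7 CPM and those of fibroblasts 598, 616 and 731. The knockout was the highest library in proximal luminal cells and the lowest in secretory luminal cells.

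The degradation genes were all higher in secretory luminal than in basal cells, without overlap. Herpud1, a stress-induced membrane protein of the degradation complex, had 1402, 1261 and 864 CPM against 306, 171 and 234 in basal cells. Derl3, a channel protein of the same complex, had 161, 229.5 and 105 CPM against 9.06, 10.5 and 12.5, a log2 difference of 3.77. Sel1l and its ubiquitin ligase partner Syvn1 ranged from 182 to 192 and from 74.0 to 117 CPM in secretory luminal cells, and Edem1, which picks out misfolded glycoproteins, from 165 to 189. Of the entry genes, Sec61b, a subunit of the translocation channel, had 1175, 974 and 879 CPM against 146, 130.5 and 192 in basal cells, and Ssr1, a channel-associated subunit, 155, 148 and 161 CPM against 72.1, 82.7 and 81.2.

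Within the secretory luminal cells the clusters differed from each other. Cluster 7, led by Spink5, Sbp and Spink1 (48, 273 and 532 cells), stood low over plain totals. In each library its Hspa5, Hsp90b1, Calr and Manf levels were below those of clusters 1, 2, 3, 14 and 15. The 16 secretory luminal markers took up much of its totals. They summed to 377777, 475911 and 399305 CPM in cluster 7, against 34609, 69901 and 77159 in cluster 14. The order of the clusters with these markers left out of the totals was not tested. Hspa5 of cluster 7 stood at 2770.3, 2172 and 1569.8 CPM, while cluster 3, led by Ren1 and Pde4c, had 7664, 6798 and 4033. Cluster 15, led by H2-Q10, Muc19 and Msmb (95, 252 and 348 cells), had high Calr at 2303, 2434 and 2184 CPM, against 871, 672 and 600.05 in cluster 7. Derl3 followed the same order, with 401, 399 and 287 CPM in cluster 15 and 81.0, 77.5 and 32.0 in cluster 7. Atf4 split the clusters in another way: cluster 15 had 479, 503 and 492 CPM of Atf4 and cluster 3 had 888, 967 and 936. Ern1 reached 649, 611 and 313 CPM in cluster 22, led by Sema5b and Scin, of which heterozygote 1 held 11 cells. Most Nupr1 UMIs lay in cluster 7, at 1432, 4674 and 5304 CPM, and in cluster 17, which held 8, 39 and 401 cells and 0, 22 and 4500 Nupr1 UMIs. The knockout library was lowest for Nupr1 inside cluster 7 too; with 48 knockout cells it was not tested.

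**Figure D2:**
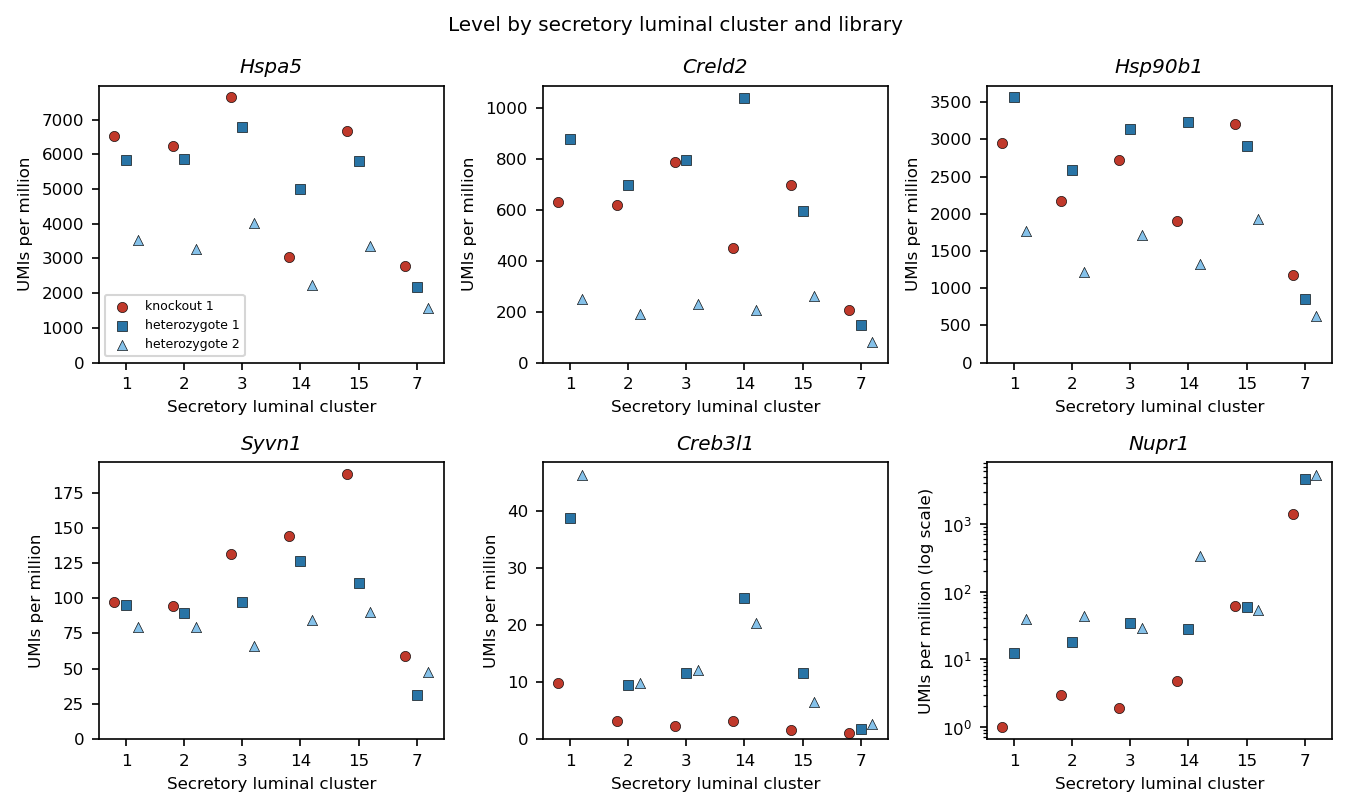
Levels in CPM (y axis, log scale for Nupr1) of chosen genes in the secretory luminal clusters (x axis), 1 symbol per library. Over plain totals cluster 7 is low for Hspa5 and Hsp90b1 and high for Nupr1, and heterozygote 2 is the lowest library for Hspa5 in all 6 clusters plotted.

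The 2 heterozygote libraries differed from each other in secretory luminal cells. Heterozygote 2 was the lowest of the 3 libraries for 21 of 35 genes, against 27.3% of all genes. By role these were 9 of 11 chaperones, 4 of 6 disulfide enzymes, 4 of 5 degradation genes and 2 of 8 transcription factors. The median fitted log2 difference, heterozygote 2 minus heterozygote 1, was -0.86 for the chaperones and -0.02 for all genes. Creld2 (-1.81), Derl3 (-1.24) and Sdf2l1 (-1.17) had the largest. In single clusters heterozygote 2 was lowest for 19 of 35 genes in cluster 1 (27.6% of all genes), 18 in cluster 2 (24.1%), 19 in cluster 3 (26.2%), 12 in cluster 14 (12.9%) and 24 in cluster 15 (26.3%). Outside secretory luminal cells the count was nearer the background: 14 of 35 in seminal vesicle-like cells (38.4%) and 8 of 35 in basal cells (30.4%). Among cells at least as deep as the shallowest barcode of heterozygote 1 the secretory luminal counts were again 21 of 35 and 9 of 11. The share of mitochondrial UMIs was 2.68%, 3.39% and 4.75% in the 3 libraries, and its part in these differences was not tested. The 9 genes with the ER stress element had a median difference between the heterozygotes of -0.74, and the 21 with a promoter and no element -0.20, a description with no test.

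**Figure D3:**
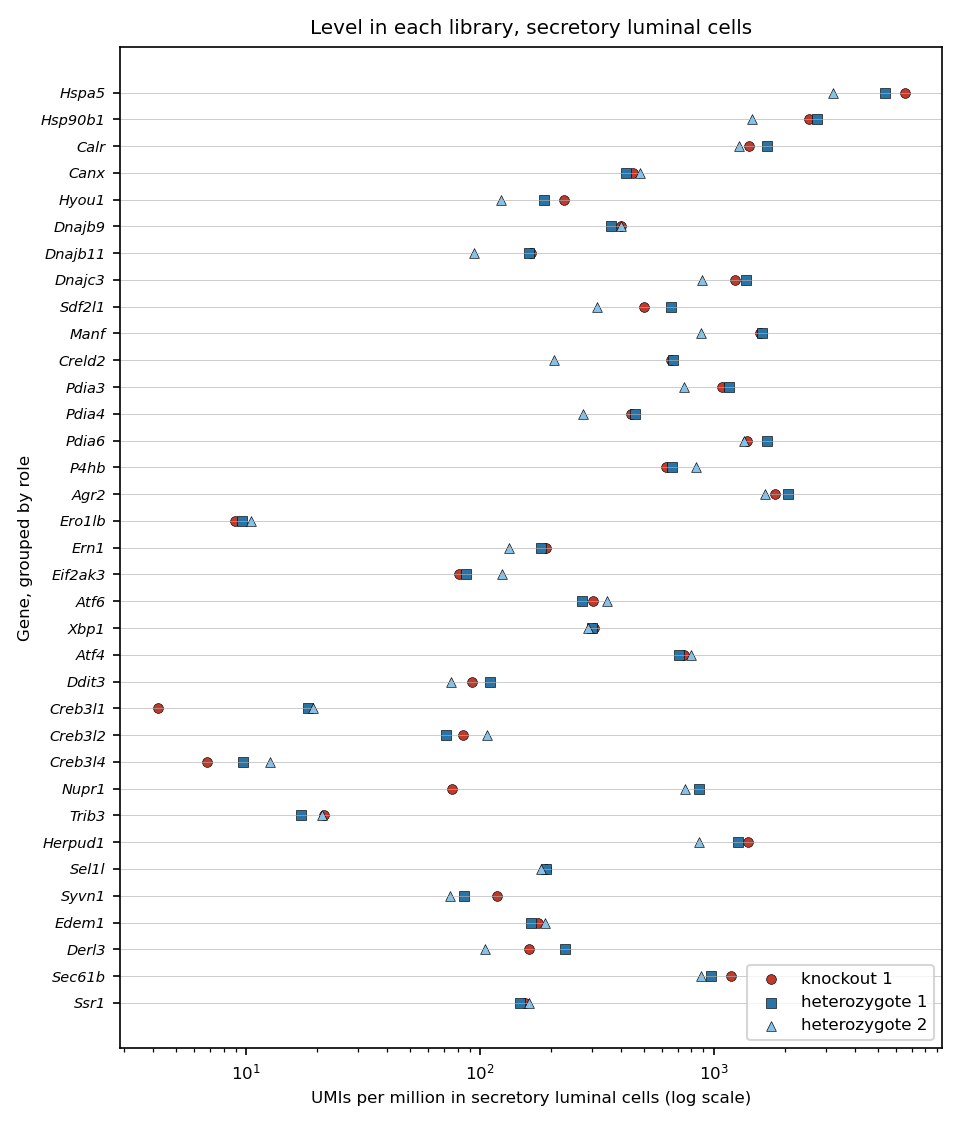
Level of each gene in secretory luminal cells (x axis, CPM, log scale) with the genes on the y axis by role and 1 symbol per library. Heterozygote 2 lies left of the other symbols for 9 of 11 chaperones, and Nupr1 and Creb3l1 are the genes whose knockout symbol lies far left of both heterozygotes.

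For the genotype comparison the UMIs of each class were added up within a library. The sums were used to test knockout against heterozygote over all genes with edgeR's quasi-likelihood test, Benjamini-Hochberg adjusted, with a threshold of 0.05. It rests on 1 residual degree of freedom, the spread between the heterozygotes, and assumes that the lone knockout library varies alike. In secretory luminal cells 2 of 35 genes tested were called, Creb3l1 and Nupr1, both lower in the knockout, against 172 of 16537 genes (1.04%). The median log2 difference was 0.02 over the 35 genes and -0.02 over all genes. The knockout lay above both heterozygotes for 8 of 35 (34.6% of all genes), below both for 7 (35.0%) and between them for 20 (30.4%). Hspa5, at 6521, 5389.8 and 3215 CPM, had a log2 difference of 0.57 ± 0.37 (SE) and an adjusted p of 0.778, and Hsp90b1, with the knockout between the heterozygotes, 0.24 ± 0.39 and 0.9745.

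Creb3l1 had 80, 451 and 869 UMIs in secretory luminal cells (4.18, 18.4 and 19.3 CPM). The heterozygotes were close together and the knockout lay below both, by -2.19 and -2.14 on the log2 scale. The fitted difference was -2.18 ± 0.33 with an adjusted p of 0.00119 by edgeR. A Creb3l1 UMI was seen in 4.87%, 15.7% and 14.5% of the cells. Creb3l1 lies at chr2:91982328-92024502 on the minus strand (mm10, GENCODE vM21). Fibroblasts of the knockout had 45.3 CPM of Creb3l1, between the 69.0 and 30.3 CPM of the heterozygotes.

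Nupr1 had 1445, 21198 and 33737 UMIs in secretory luminal cells (75.6, 865 and 749.7 CPM). The knockout lay below both heterozygotes, by -3.59 and -3.26, and the fitted difference was -3.44 ± 0.39 with an adjusted p of 3.66e-05 by edgeR. Nupr1 lies at chr7:126623249-126630861 on the minus strand. Most of its UMIs came from clusters 7 and 17, which together held 48 and 8 knockout cells against 273 and 39 in heterozygote 1 and 532 and 401 in heterozygote 2. Without these clusters the log2 difference was -2.14. Both calls were lost when the filter on low counts was dropped, with adjusted p of 0.70 for Creb3l1 and 0.506 for Nupr1.

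**Figure D4:**
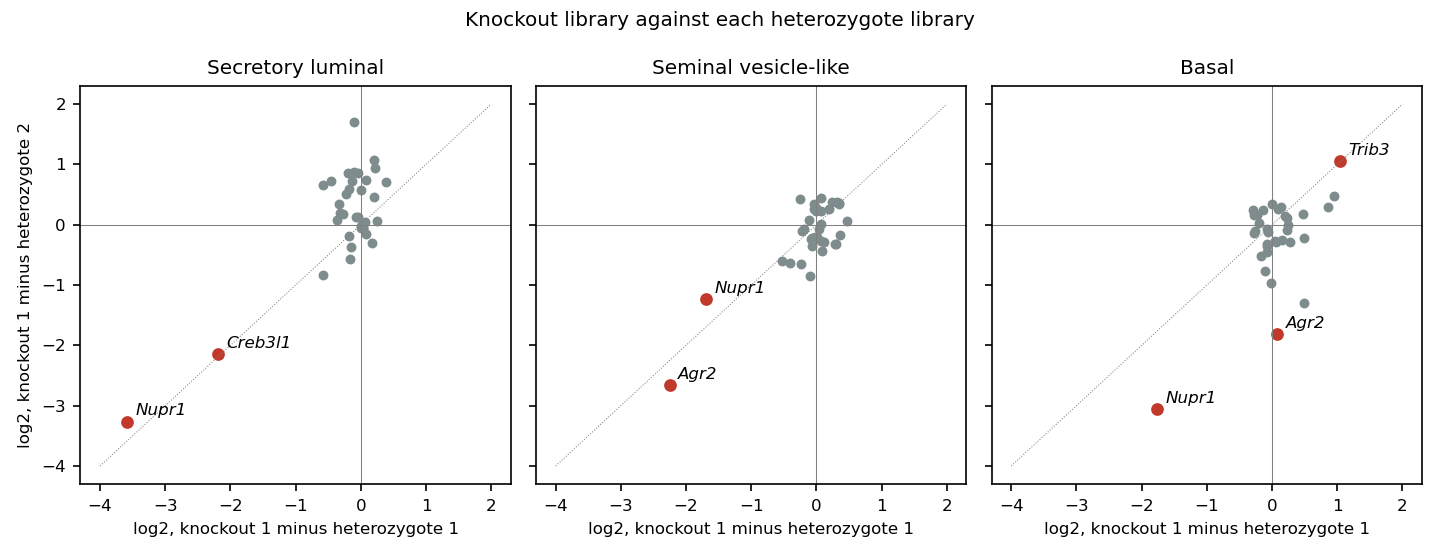
Each point is a gene: log2 difference of the knockout from heterozygote 1 (x axis) and from heterozygote 2 (y axis), in secretory luminal, seminal vesicle-like and basal cells. Nupr1 lies low on both axes in all 3 panels, Creb3l1 in secretory luminal cells and Agr2 in seminal vesicle-like cells, and red marks the called genes.

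Of the 5 secretory luminal clusters with at least 50 cells in each library, Creb3l1 was called in 3 and Nupr1 in 4. In cluster 1, led by Gpx3 and Ms4a5, Creb3l1 fell by 2.04 (adjusted p 4.29e-06 by edgeR; 39, 294 and 539 UMIs) and Nupr1 had a difference of -4.605 (9.21e-15), 2 of the 405 genes called there (3.25%). In cluster 2, led by C1s2 and Pnliprp1, with 218 genes called (1.93%), Creb3l1 fell by 1.51 (adjusted p 0.0459) and Nupr1 by 3.33 (3.44e-13). Cluster 3, with 210 genes called (1.62%), gave -2.24 for Creb3l1 (4.52e-05) and -3.96 for Nupr1 (6.44e-17). In cluster 14, the shallowest of these clusters, 24 genes were called (0.361%) and Nupr1 fell by 4.85 (7.33e-07); its 9 UMIs in heterozygote 1 left a difference of -1.66 from that library. In cluster 15 neither was called: Nupr1 had 61.8, 59.4 and 53.5 CPM, with the knockout highest (0.29, adjusted p 0.912), and Creb3l1 had 3, 36 and 32 UMIs (-2.28, adjusted p 0.137). Against heterozygotes 1 and 2 the Creb3l1 difference was -1.90 and -2.12 in cluster 1 and -2.11 against each in cluster 3. The Creb3l1 call was lost in 3 alternative settings in cluster 2 and in 1 in cluster 3. The Nupr1 call was lost in 1 in cluster 1 and in 2 in cluster 14.

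In clusters 1, 2, 3 and 14 both Nupr1 and Sbp were lowest in the knockout, and in cluster 15 only Sbp was. In cluster 3 the heterozygotes stood in opposite order, at 34.2 and 28.8 CPM of Nupr1 and 917 and 1276 CPM of Sbp. Nupr1 had 4, 95 and 457 UMIs in cluster 1, beside 49.7, 725 and 1504 CPM of Sbp, a gene that leads cluster 7. Per 100 Sbp UMIs there were 2.03, 1.73 and 2.61 Nupr1 UMIs. This ratio ranged from 1.39 to 3.73 in clusters 2, 3 and 14. In cluster 7 itself the ratio was 0.558, 1.36 and 2.18, in each library below those of clusters 1, 2, 3 and 14. In cluster 15 it was 49.2, 1.38 and 2.47, with Sbp at 126, 4311 and 2165 CPM. The cluster 7 profile of each library, scaled by the RNA of its leading genes, was taken off the 5 clusters with at least 50 cells in every library. This left 122, 161 and 174 of 149, 542 and 1769 Nupr1 UMIs, and the log2 difference went from -2.08 (adjusted p 4.89e-08) to 0.19 (0.999). What was left lay unevenly, and the fits took it as raw counts. Their p-values carry no error for the subtraction and are no measure of a knockout difference by themselves. In cluster 15 the knockout kept 114 of 116 Nupr1 UMIs against 7 of 183 and 3 of 265 (5.68, adjusted p 2.76e-40 by edgeR). In cluster 2 the knockout stayed below both heterozygotes (-2.28, adjusted p 0.00738). Cluster 3 kept 5, 123 and 3 Nupr1 UMIs (0.777, 20.7 and 0.417 CPM), with a fitted difference of -3.61 (adjusted p 4.8e-08). The knockout there lay below heterozygote 1 alone and above heterozygote 2. Creb3l1 kept 74, 434 and 796 of 74, 434 and 797 UMIs, with -2.30 before and after (2.18e-09 and 2.78e-06).

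Of the 5 secretory luminal clusters fitted, cluster 15 alone gave a gene of the set that rose. Syvn1, the ubiquitin ligase of ER-associated degradation, stood at 188.5, 111 and 90.3 CPM, and the knockout lay above both heterozygotes. Its log2 difference was 1.06 ± 0.29 with an adjusted p of 0.0210 by edgeR, against 153 of 10779 genes called (1.42%). The call was lost with DESeq2 (adjusted p 0.262), with limma-voom (0.0515) and without the filter on low counts (0.0589), at log2 differences of 1.03 to 1.07. The knockout was above both heterozygotes for 26 of 35 genes (35.4% of all genes there), with a median of 0.40 against -0.02 for all genes. Herpud1 had 2259, 1577 and 973 CPM (0.98, adjusted p 0.0636) and Creld2 698, 593 and 262 CPM (0.86, adjusted p 0.141), neither past the threshold.

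In seminal vesicle-like cells 2 of 35 genes were called, against 268 of 11589 genes (2.31%). Agr2 had 8.95, 42.4 and 54.8 CPM, with the knockout below both heterozygotes, and fell by 2.50 ± 0.33 (adjusted p 4.79e-11 by edgeR). Nupr1 had 9.15, 29.4 and 20.6 CPM and fell by 1.49 ± 0.32 (adjusted p 0.000380). Markers of secretory luminal cells moved with both: the 16 markers summed to 831, 3051 and 2846 CPM in these cells, with Sbpl alone at 0 in the knockout. Per 100 UMIs of the marker Pbsn there were 3.43, 10.1 and 7.04 Agr2 UMIs, again lowest in the knockout. After each library's secretory luminal profile was taken off in proportion to the markers, Nupr1 had a difference of 0.40 (adjusted p 0.901 by edgeR). Agr2 kept 0, 0 and 147 of 91, 244 and 590 UMIs. In all subtractions the fits carried no error for the subtraction, and the counts were cut off at 0. A count of 0 can therefore stand for more RNA taken off than was present. With all seminal vesicle-like clusters together none of the set was called by edgeR, nor was any of 11867 genes; 6 of the set had an unadjusted p under 0.05, and 736 knockout cells then came from cluster 12, which held 8 and 2 heterozygote cells.

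Basal cells gave 3 called genes of 34, against 278 of 11924 (2.33%). Trib3 had 30.8, 15.9 and 15.6 CPM; the heterozygotes were close together and the knockout was above both. It rose by 1.07 ± 0.28 (adjusted p 0.0116 by edgeR), and a UMI was seen in 11.8%, 5.18% and 4.59% of the cells. Nupr1 had 7.69, 29.5 and 72.1 CPM and fell by 2.66 ± 0.32 (adjusted p 5.87e-14), with -1.76 against heterozygote 1 and -3.06 against heterozygote 2. Agr2 had 69.9, 71.8 and 263 CPM and fell by 1.18 ± 0.28 (adjusted p 0.00216), although the knockout was level with heterozygote 1 (0.08) and below heterozygote 2 alone (-1.81). The secretory luminal markers summed to 3422, 5935 and 16855 CPM in basal cells, with Sbpl at 0 in the knockout. Agr2 had 5.43, 5.15 and 5.78 UMIs per 100 UMIs of Pbsn, a secretory luminal gene. With the secretory luminal profile taken off, Agr2 kept 0, 0 and 87 of 409, 158 and 1162 UMIs, Nupr1 kept 24, 0 and 0 of 45, 65 and 318, and Trib3 stood at 1.13 (adjusted p 0.0258). None of the 3 was called with DESeq2, with median-ratio size factors or at Leiden resolution 2.0.

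**Figure D5:**
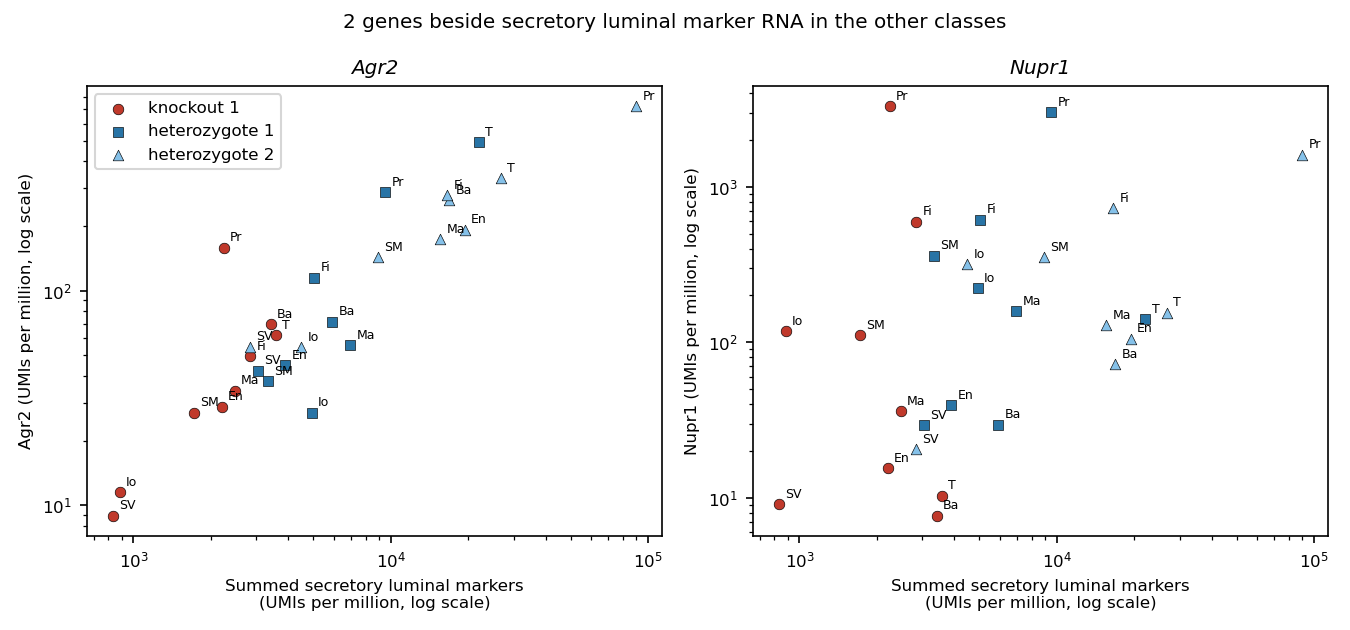
Level of Agr2 and Nupr1 (y axis, CPM, log scale) against the summed secretory luminal markers (x axis, CPM, log scale) in the classes that are not secretory luminal, 1 point per class and library. Agr2 is lowest in the knockout library in all 9 classes plotted, while Nupr1 in proximal luminal cells and fibroblasts lies above the points of the other classes.

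Agr2 and Nupr1 were also the genes called in the other classes. In smooth muscle, with 407 of 9500 genes called (4.28%), Nupr1 had 112, 361 and 352 CPM, the heterozygotes close together and the knockout below both. It fell by 1.52 ± 0.30 (adjusted p 5.66e-05 by edgeR), and by 1.42 (0.0094) with the secretory luminal profile taken off. Agr2 fell by 1.65 (2.71e-06) in smooth muscle, but by only 0.29 against heterozygote 1. In fibroblasts, with 101 of 6889 called (1.47%), Agr2 fell by 1.91 ± 0.42 (adjusted p 0.000744), with -0.90 against heterozygote 1, and Nupr1, at 598, 616 and 731 CPM, was not called. In ionocyte-like cells, with 195 of 10868 called (1.79%), Nupr1 fell by 1.33 (0.00192) (118, 223 and 319.6 CPM; -2.003 and 0.323 with seminal vesicle RNA taken off), and Agr2 by 2.001 (2.23e-06), with -1.29 against heterozygote 1. The secretory luminal markers summed to 1722, 3335 and 8901 CPM in smooth muscle, 2840.2, 5052 and 16572 in fibroblasts and 885, 4924 and 4491 in ionocyte-like cells, with Sbpl at 0 in the knockout in all 3, in every library of smooth muscle and in heterozygote 1 of the other 2 classes, and Trpv6 and Pnliprp1 at 0 in heterozygote 1 fibroblasts. Without that profile Agr2 kept 0, 0 and 17 UMIs in smooth muscle, 0, 7 and 15 in fibroblasts and none in ionocyte-like cells. In endothelial cells none of 30 genes was called, against 19 of 5094 (0.373%); 4 had an unadjusted p under 0.05, and DESeq2 and limma-voom called none.

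Proximal luminal cells gave no call among 35 genes, against 8 of 11164 (0.0717%). 6 of the 35 had an unadjusted p under 0.05, DESeq2 and limma-voom called none, and 2, Derl3 and Sdf2l1, were called without the filter on low counts. The knockout lay below both heterozygotes for 24 of 35 (38.3% of all genes), with a median of -0.65 against -0.05. This class joined cluster 13, present in all libraries (124, 320 and 287 cells), with cluster 20, which held 1, 14 and 341 cells and secretory luminal genes. In cluster 13 alone 2 of 33 genes were called, against 230 of 10274 (2.24%), and the knockout was below both for 18 of 33 (37.5%). Sdf2l1 had 20, 124 and 102 UMIs there and fell by 1.30 ± 0.40 (adjusted p 0.0472 by edgeR). Derl3 had 1, 31 and 28 UMIs and fell by 3.604 ± 1.01 (adjusted p 0.0211); with 1 UMI in the knockout this size is loosely fixed. Nupr1, at 3292, 2894 and 2118 CPM in cluster 13, was not called.

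Of the unnamed clusters, 3 had at least 50 cells in each library. In cluster 6, led by Tmem171 and with basal and proximal luminal markers, 2 of the genes were called, against 309 of 6906 (4.47%). Agr2 fell by 1.66 (adjusted p 3.39e-06 by edgeR) and Nupr1 by 1.94 (2.8e-05). In cluster 8, led by Sprr2f, with 90 of 10064 genes called (0.894%), Agr2 fell by 1.86 (0.0483) and Nupr1 by 2.90 (0.0210). In cluster 5, a shallow cluster with no marker of any class, 1 of the genes was called, Nupr1, against 94 of 8774 (1.07%); it fell by 3.99 (1.9e-10), with -1.67 against heterozygote 1 and -4.01 against heterozygote 2.

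The difference between classes was tested with the library as a block. Between secretory luminal and seminal vesicle-like cells 4 genes passed, against 319 of 15457 (2.06%). The knockout difference was lower in secretory luminal cells for Creb3l1 (-2.41 ± 0.50, adjusted p 0.00103 by edgeR) and Nupr1 (-1.95 ± 0.29, 1.04e-06). It was higher there for Agr2 (2.45 ± 0.36, 5.75e-07), which fell in seminal vesicle-like cells and had a difference of -0.06 in secretory luminal cells, and for Syvn1 (1.10 ± 0.23, 0.000864), which was called in neither class alone. Between secretory luminal and basal cells none passed, against 51 of 15959 (0.32%); 1 gene, Trib3, had an unadjusted p under 0.05, and DESeq2 and limma-voom passed none.

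A further 91 genes of the same pathways, in 6 lists chosen by textbook role, gave few calls. None of the 91 was called in secretory luminal cells. There the knockout was below both heterozygotes for 11 of 14 genes of N-glycosylation, 10 of 19 of transport from the ER to the Golgi, 7 of 14 of the translocon and signal peptidase, 5 of 14 other folding enzymes, 4 of 12 other degradation genes and 6 of 18 Atf4 targets, against 35.0% of all genes. The list medians lay between -0.21 (N-glycosylation) and -0.08 (Atf4 targets). In basal cells 3 of the 91 rose and 1 fell. Qsox1, a disulfide oxidase, had 51.3, 16.8 and 13.8 CPM and rose by 1.87 (adjusted p 3.66e-09 by edgeR), and the Atf4 targets Chac1, at 60.5, 16.8 and 29.9 CPM, and Vldlr, at 20.3, 6.82 and 12.2 CPM, rose by 1.42 (7.71e-06) and 1.12 (0.0261). The knockout was above both heterozygotes for 15 of 18 Atf4 targets in basal cells (34.6% of all genes there), with a median of 0.43 against -0.01 for all genes. Chac1 also differed between secretory luminal and basal cells (-1.87, adjusted p 0.000137).

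Qsox1 also rose in fibroblasts (97.8, 40.3 and 30.3 CPM; 1.69, adjusted p 0.0120 by edgeR), in cluster 1 (1.08, 0.0192) and in cluster 14 (2.09, 0.00622). In cluster 1 the peroxide-using folding enzyme Prdx4 rose by 1.24 (0.00410) and the Atf4 target Shmt2 fell by 1.25 (0.0295). Cebpb fell in seminal vesicle-like cells (14.1, 10.1 and 70.9 CPM), in basal cells (60.2, 50.5 and 330.1 CPM), in fibroblasts, smooth muscle, ionocyte-like cells and cluster 13, by 1.24 to 1.97. In all but smooth muscle the knockout stood above heterozygote 1, and in smooth muscle it was level with it (0.02), so heterozygote 2 alone was high. In the comparison of secretory luminal with seminal vesicle-like cells Qsox1 (1.16), Cebpb (0.88) and Chac1 (-0.78) passed.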

How the data were processed

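Values are raw UMI counts per gene and cell, which the authors deposited as 1 matrix per library. The submitters' processing notes name Cell Ranger 3.1.0 and the build mm10, while the calling of cell barcodes is not given in the sources used here. Barcodes needed 500 or more genes and no more than 15% of UMIs from mitochondria. Likely doublets were found in each library by comparison with simulated pairs, at a rate of 0.8% per 1000 barcodes, and removed. Clustering used 2000 variable genes, 30 components, 15 neighbours and Leiden resolution 1 (leidenalg 0.10.2), without 70 genes abundant in free RNA and without the genes described. A cluster took a name from at least 3 markers with a log2 fold of 1 in 25% of its cells. Counts were summed per library and class and fitted over all genes in R 4.3.3 with edgeR 4.0.16 (TMM, filter on low counts, Benjamini-Hochberg). DESeq2 1.42.0 and limma 3.58.1 were alternatives, and the scripts were tested on simulated data. The genes and lists were chosen with earlier results of these data known. Genes named are those called, the 2 highest of each role group in secretory luminal cells, and each other gene by value or range; of the 91 added genes at most 3 called per list and class, with Cebpb described after its values were seen.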

Additional observations from a re-analysis of the deposited data

Results flagged for a closer look

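Between secretory luminal and seminal vesicle-like cells the knockout difference itself differed for 4 genes by a test of the difference (edgeR, interaction term). The log2 values, secretory luminal minus seminal vesicle-like, were -2.414 for Creb3l1, -1.949 for Nupr1, 2.454 for Agr2 and 1.101 for Syvn1. DESeq2 passed Agr2 and Nupr1. Secretory luminal marker RNA in seminal vesicle-like cells was 831 CPM in the knockout against 3051 and 2846 in the heterozygotes, and its part in the Agr2 and Nupr1 values of the test was not tested.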

How the results depend on the processing

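Counts of called genes that moved were as follows. In secretory luminal cells 2 became 0 without the filter on low counts, and 1 in the shared clusters with Spink5 cluster RNA subtracted. In seminal vesicle-like cells 2 became 1 with DESeq2, 1 with the looser cell filter, 1 with secretory luminal RNA subtracted and 0 with all clusters of that name. In basal cells 3 became 0 with DESeq2, 0 with median-ratio size factors, 0 at resolution 2.0 and 1 with the stricter cell filter. In the other classes 5 became 1 with DESeq2, 3 with the stricter filter, 9 at resolution 2.0 and 3 with secretory luminal RNA subtracted. In single clusters 8 became 3 with DESeq2 and 5 with limma-voom, and 4 interaction terms became 2 with DESeq2. Genes higher in seminal vesicle-like than basal cells went from 11 to 27 with TMM and 28 without seminal vesicle genes. Those higher in secretory luminal than seminal vesicle-like cells went from 32 to 21 without these genes. The shares of all genes over the changed totals were not counted. Promoters with the element went from 9 to 14 with 1 mismatch. The cause was not tested. Of 364 values of named genes under alternatives 322 were scored as unchanged, 41 lost the call and 1 reversed. The last was Nupr1 in seminal vesicle-like cells, 0.40 with secretory luminal RNA subtracted. The unchanged values include genes not called in the main fit, which had no call to lose. Their sign could change, as for Atf4 in secretory luminal cells (-0.10 to 0.11). Leaving out each heterozygote gave -1.81 to 0.08 for Agr2 in basal cells, which reversed to 0.0804 without heterozygote 2, -2.24 to -0.29 for Agr2 in smooth muscle, -2.32 to -0.90 in fibroblasts, -5.09 to -1.66 for Nupr1 in cluster 14 and -3.06 to -1.76 in basal cells; these are values with no test. No paired analysis was possible, since there was 1 knockout library and the labels give no pairs. The subtractions of luminal and Spink5 cluster RNA were chosen after seeing the data.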

Other observations

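In cluster 6, 1 of the 3 unnamed clusters with at least 50 cells in every library, 4 of the 18 Atf4 targets tested rose in the knockout and 1 fell, against 309 of 6906 genes called in either direction (4.47%). Slc7a11, the cystine transporter, had 402.5, 99.2 and 121 CPM in the knockout, heterozygote 1 and heterozygote 2 and rose by 2.08 (adjusted p 4.76e-11 by edgeR). Sesn2, a stress-induced regulator of growth signalling, had 143, 76.9 and 86.6 CPM and rose by 1.02 (0.00864), the amino acid transporter Slc7a5 had 167, 91.7 and 108 CPM and rose by 0.95 (0.0217), and Aars, an aminoacyl-tRNA synthetase, had 92.7, 49.6 and 64.9 CPM and rose by 0.89 (0.0487). In these 4 genes the knockout lay above both heterozygotes. Cebpb had 113, 91.7 and 375 CPM and fell by 0.88 (0.0467), with heterozygote 2 alone high. The knockout was above both heterozygotes for 15 of the 18 targets, against 33.1% of all genes there.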
